A study of Mus musculus with 4 samples.

Results

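A set of 9 genes of the bone-forming programme was followed in the embryonic mouse mandible: the transcription factor genes Runx1, Runx2, Runx3, Sp7, Twist1 and Twist2, and the matrix and mineralisation genes Spp1, Alpl and Ibsp. They were picked by gene symbol, after older symbols had been brought up to date. All 9 of the 9 genes were on the array, as 9 of 16637 named genes and 10 of 29922 probes, with 2 probes for Runx2 and 1 for each of the others. Whole mandibles of C57BL/6 embryos at E11.5 were profiled on 4 one-colour Cy5 arrays. The 2 control arrays came from wild-type embryos, and the 2 Bmp4 OE arrays from embryos with conditional overexpression of Bmp4 that had been given doxycycline for 24 hours. No source used here gives the promoter that drives the transgene, whether embryos were pooled, or whether controls received doxycycline, so effects of Bmp4, of the drug and of the genetic background of the line cannot be told apart. Nothing says that arrays of 1 group came from separate embryos, and the spread behind the p-values may be technical.

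Membranous bone of the lower jaw forms from neural crest mesenchyme. Runx2 and, downstream of it, Sp7 (osterix) commit mesenchymal cells to the osteoblast fate, and osteoblasts then express alkaline phosphatase (Alpl), osteopontin (Spp1) and bone sialoprotein (Ibsp). Twist1 and Twist2 are basic helix-loop-helix (bHLH) proteins of undifferentiated mesenchyme that bind Runx2 and restrain its activity. BMP ligands are known as inducers of bone.

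Values are the deposited log2 intensities, which share 1 distribution on the 4 arrays, with a lower quartile of 6.79, a median of 7.95 and a maximum of 16. Values under the lower quartile are dim, and how far the array compresses differences there was not measured. Arrays of the same group correlated across probes with r = 0.993 in controls and 0.993 in Bmp4 OE, and arrays of different groups with r from 0.974 to 0.981. The Bmp4 probe, which checks the labels, read 11.96 and 12.07 in controls and 15.27 and 15.31 in Bmp4 OE. In bulk tissue, fewer cells of a type and less RNA per cell cannot be told apart.

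Of the 9 genes, Twist1, Twist2 and Spp1 fell in Bmp4 OE, none rose and 6 did not pass (limma, adjusted p under 0.05 over all probes, gene counted by its brightest probe). Among all named genes 9.54% fell and 7.39% rose by the same rule. The 3 that fell also met the cut-off that the study states (2-fold, unadjusted p under 0.05), which 1.76% of named genes met as lower and 1.56% as higher. With control replicate 1 or 2, or Bmp4 OE replicate 1 or 2, left out, none of the 3 passed in limma (adjusted p from 0.138 to 0.191), as 0 of all probes did, while their unadjusted p stayed at or under 0.00369. The median log2 fold change was -0.41 over the 9 genes and 0 over all named genes. In 7 of the 9 genes both Bmp4 OE arrays lay below both control arrays, and in Runx3 both lay above. Such separation was common, since 32.3% of all named genes were lower and 31% higher without overlap. An unadjusted p under 0.05 was reached by 8 of the 9 genes (7 lower, 1 higher), against 18.8% lower and 17.6% higher among all named genes.

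**Figure D1:**
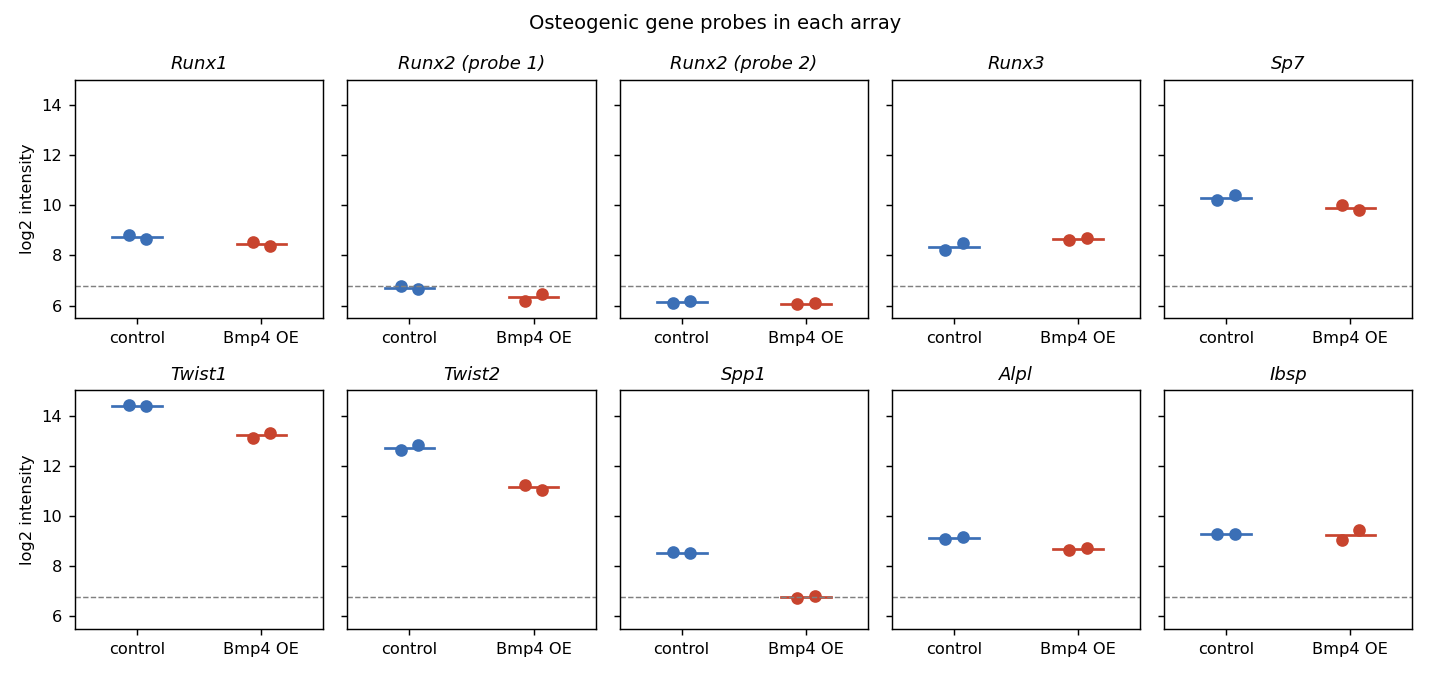
Log2 intensity (y axis) of the 10 probes of the 9 genes in the 2 control arrays (blue points) and the 2 Bmp4 OE arrays (red points). Short lines are group means and the dashed line is the lower quartile of all probes, 6.79. Twist1, Twist2 and Spp1 show a gap of more than 1 log2 unit between groups, and both Runx2 probes lie under the quartile line on every array.

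The stretches before the starts of the genes that fell are shown first, with that of Ibsp, a member near Spp1 on chromosome 5 that did not pass. Each is the 250 bases before the RefSeq start of the gene (GRCm38.p6, plus strand, 5′ to 3′), at chr12:33957421-33957670 for Twist1, chr1:91801211-91801460 for Twist2, chr5:104434861-104435110 for Spp1 and chr5:104299037-104299286 for Ibsp. Capitals mark matches to the core letters bound by Runx proteins, TGTGGT or TGCGGT, and to the E-box CANNTG bound by bHLH proteins, both searched on both strands; no match of one overlaps one of the other in these stretches.
Twist1: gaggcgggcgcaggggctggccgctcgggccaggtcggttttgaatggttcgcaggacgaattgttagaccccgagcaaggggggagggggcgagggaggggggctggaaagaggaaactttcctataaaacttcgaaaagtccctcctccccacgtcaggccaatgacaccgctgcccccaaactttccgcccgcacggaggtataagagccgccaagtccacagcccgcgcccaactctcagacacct
Twist2: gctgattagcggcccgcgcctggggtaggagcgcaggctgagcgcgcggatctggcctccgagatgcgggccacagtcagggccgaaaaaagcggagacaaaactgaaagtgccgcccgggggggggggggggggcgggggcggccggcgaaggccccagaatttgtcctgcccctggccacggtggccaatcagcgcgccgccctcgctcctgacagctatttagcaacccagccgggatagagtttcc
Spp1: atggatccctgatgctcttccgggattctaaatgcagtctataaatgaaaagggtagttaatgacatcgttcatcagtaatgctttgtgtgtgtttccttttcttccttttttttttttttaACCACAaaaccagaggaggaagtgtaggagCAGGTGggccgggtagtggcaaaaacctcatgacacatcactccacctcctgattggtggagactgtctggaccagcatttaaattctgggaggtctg
Ibsp: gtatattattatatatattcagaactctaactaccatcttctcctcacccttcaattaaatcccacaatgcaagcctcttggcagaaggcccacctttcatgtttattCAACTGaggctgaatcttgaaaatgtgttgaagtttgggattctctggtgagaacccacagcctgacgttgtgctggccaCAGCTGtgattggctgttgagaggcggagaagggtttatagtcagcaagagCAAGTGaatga

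The 3 genes that fell did not share these letters. The Spp1 stretch holds 1 Runx match, whose first base lies 128 bases before the start, and 1 E-box 98 bases before it. The Ibsp stretch holds 3 E-boxes and no Runx match. Those of Twist1 and Twist2 hold neither, and are richer in G and C (62.4% and 68.8%) than those of Spp1 and Ibsp (43.6% each). Of all 32851 RefSeq windows of 300 bases (250 before and 50 after a start), 22.4% hold a Runx match and 72.3% an E-box. A match is a description of letters, and binding was not measured.

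Twist1 fell 2.27-fold. Its probe (mMC005043) read 14.40 and 14.38 in controls and 13.12 and 13.29 in Bmp4 OE. The controls differed by much less than the drop, and each of the 4 differences between single arrays lay between -1.28 and -1.09. The log2 fold change was -1.19 (95% interval -1.46 to -0.91; limma, adjusted p = 0.00667). Twist1 is needed for cranial neural crest mesenchyme, and loss of 1 human copy causes premature fusion of skull sutures. Across all named genes, 176 fell more than Twist1.

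Twist2 (Dermo1), its close relative in mesenchyme and dermis, fell 3.00-fold. The probe (mMC011604) read 12.63 and 12.81 in controls and 11.23 and 11.04 in Bmp4 OE. The groups were apart by 1.40 at their nearest arrays, against differences of 0.18 and 0.19 within groups. The log2 fold change was -1.59 (95% interval -1.90 to -1.27; limma, adjusted p = 0.00477), and 59 named genes fell more. The log2 difference of Twist2 minus Twist1 went from -1.77 and -1.57 in controls to -1.89 and -2.25 in Bmp4 OE. The groups did not overlap and the change was -0.40. With 2 arrays in each group the smallest p of an exact permutation test is 0.333, which leaves that change without a usable test. Probe sequences were not used here, and whether either probe reads the other paralog was not tested.

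Markers of the mesenchyme that expresses the Twist genes went both ways. Of 12 measured mandibular mesenchyme genes, Prrx2 and Msx1 rose, Barx1, Lhx8 and Pitx1 fell and 7 did not pass. Their median log2 fold change was 0.003, and among all named genes 7.39% rose and 9.54% fell. Pdgfra, a receptor of most facial mesenchyme, gave 0.03 ± 0.10 (log2 fold change, SE) and Prrx1, a homeobox gene of the same tissue, gave -0.17 ± 0.11; neither passed. The summed intensity of the 12 genes, as log2, was 15.86 to 15.87 in controls and 16.07 to 16.09 in Bmp4 OE, and none of the 12 was under the lower quartile on all arrays. Without Msx1, left out after its values were seen, the sum of the other 11 went the other way, from 15.42 in both controls to between 15.17 and 15.23 in Bmp4 OE. The part of the amount of mesenchyme in the Twist values was not tested.

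**Figure D2:**
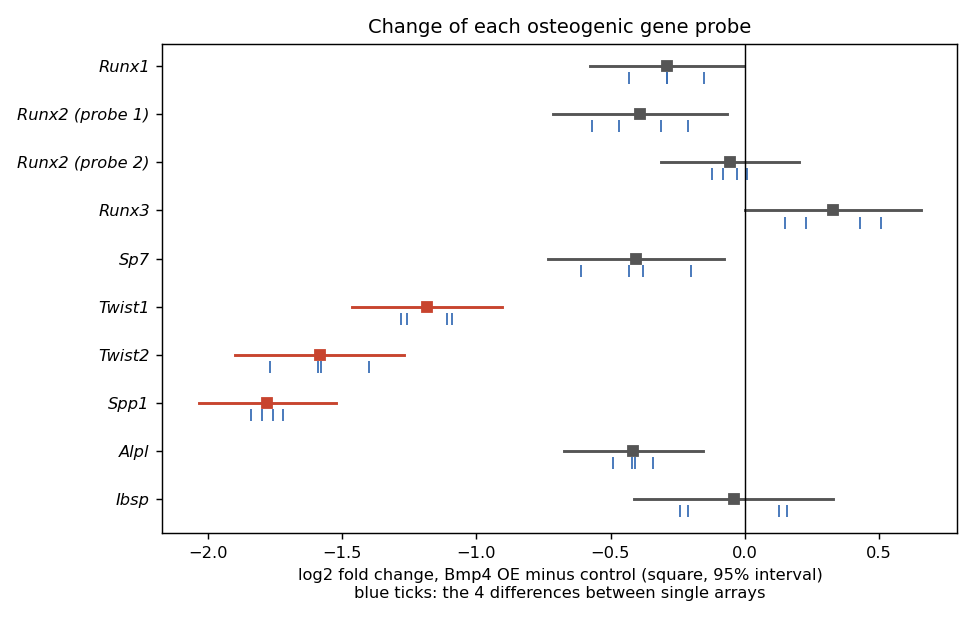
Log2 fold change of each probe, Bmp4 OE minus control (x axis), as a square with its 95% interval from limma. Red marks probes with an adjusted p under 0.05 and grey the others, and blue ticks are the 4 differences between single arrays. The intervals of Twist1, Twist2 and Spp1 lie wholly below -0.9, and that of Ibsp spans 0.

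None of the Runx genes passed, and Runx2 was dim. This gene, the master gene of osteoblasts, read 6.77 and 6.67 in controls and 6.20 and 6.46 in Bmp4 OE at its brighter probe (mMR028656). All 4 values lay under the lower quartile, and the log2 fold change was -0.39 (95% interval -0.71 to -0.07; limma, adjusted p = 0.101). The second Runx2 probe (mMC020459) read 6.09 and 6.18 in controls and 6.06 and 6.10 in Bmp4 OE. Its groups overlapped, and its log2 fold change was -0.06 (95% interval -0.31 to 0.20).

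Runx1, best known from blood formation, and Runx3, best known from sensory neurons and gut, leaned in opposite directions without passing. Runx1 (mMR026388) read 8.81 and 8.67 in controls and 8.52 and 8.38 in Bmp4 OE, a log2 fold change of -0.29 (95% interval -0.58 to -0.002; limma, adjusted p = 0.1498). Runx3 (mMC023646) read 8.20 and 8.48 in controls and 8.63 and 8.71 in Bmp4 OE. Its log2 fold change was 0.33 (95% interval 0.001 to 0.66; limma, adjusted p = 0.151). The log2 difference of Runx3 minus Runx1 was -0.61 and -0.19 in controls and 0.11 and 0.33 in Bmp4 OE. The groups had to separate here, because Runx3 was higher and Runx1 lower in both Bmp4 OE arrays. The difference is therefore no further result, and there were again too few arrays for a test.

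Markers of the cells that express Runx1 and Runx3 elsewhere are given beside them. For scale, 7.39% of all named genes rose and 9.54% fell. Of 9 blood and macrophage genes, 1 rose (Adgre1, 2.08-fold), 0 fell and 8 did not pass. The pan-leukocyte gene Ptprc was under the lower quartile on all arrays. The summed intensity of that list, as log2, was 11.69 to 11.72 in controls and 11.93 to 11.97 in Bmp4 OE. Of 10 measured sensory neuron genes, Isl1, Isl2 and Ntrk3 rose, 0 fell and 7 did not pass, and the summed intensity went from between 12.00 and 12.06 to between 13.22 and 13.23, or 2.30-fold higher. Without Isl1, left out after its values were seen, the other 9 went from between 11.75 and 11.82 to between 12.14 and 12.16, or 1.29-fold higher. Isl1, at 7.89-fold higher, is also a gene of non-neural mandibular tissue, while the sensory neuron gene Pou4f1 was under the lower quartile on all arrays. Ntrk3, the receptor of the neurons that need Runx3, rose by 0.69 ± 0.13 (log2, SE). The part of these cells in the Runx values was not tested.

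The 3 Runx genes share a paired match in the window of their first RefSeq start, which was noticed in these same sequences. The stretches of 26 bases (GRCm38.p6, minus strand for Runx1 and Runx2 and plus strand for Runx3, 5′ to 3′) lie at chr16:92826027-92826052, chr17:44814585-44814610 and chr4:135120505-135120530, and capitals mark the paired Runx letters.
Runx1: taaacaACCACAgaACCACAagttgg
Runx2: caaacaACCACAgaACCACAagtgcg
Runx3: ccctcaACCACAgaACCACAaggcca
A pair with this spacing of 8 bases between first letters occurs in 24 of the 32851 windows (0.0731%). That count takes any of the Runx letters and includes these 3 windows, so it is a description only. The Runx2 window also holds ACCACA 80 bases before the start and TGCGGT 39 bases after it, neither marked here. The first letter of the pair lies 28 bases after the start in Runx1, 23 bases after it in Runx2 and 134 bases before it in Runx3. The second window of Runx1 and that of Runx3, at their other listed start, hold no Runx match.

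Sp7, the zinc finger factor that acts after Runx2 in osteoblasts, was lower in both Bmp4 OE arrays without passing. The probe (mMC018476) read 10.19 and 10.42 in controls and 9.99 and 9.81 in Bmp4 OE. The groups did not overlap and lay 0.20 apart at their nearest arrays, against differences of 0.23 and 0.18 within groups. The log2 fold change was -0.41 (95% interval -0.73 to -0.08; limma, adjusted p = 0.0973).

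Among the matrix genes Spp1 fell most, by 3.43-fold. Osteopontin, its product, is a phosphoprotein of bone matrix that is also made by epithelia, macrophages and osteoclasts. Its probe (mMR027206) read 8.56 and 8.52 in controls and 6.72 and 6.80 in Bmp4 OE. Both Bmp4 OE arrays lay close to the lower quartile of 6.79, 1 just under it and 1 just above it. The log2 fold change was -1.78 (95% interval -2.04 to -1.52; limma, adjusted p = 0.00242), and 42 named genes fell more. The counts that follow stand beside 7.39% of all named genes that rose and 9.54% that fell. Of the 5 osteoclast genes measured, Oscar rose, Ctsk fell and 3 did not pass, and Calcr was under the lower quartile on all arrays. Summed intensity of the osteoclast list was 12.63 to 12.67 in controls and 12.79 to 13.05 in Bmp4 OE, as log2. Acp5, the brightest of the 5, carried most of that sum and did not pass. It read 12.34 and 12.29 in controls and 12.40 and 12.78 in Bmp4 OE. Of 7 measured epithelial genes, the keratin genes Krt14 and Krt5 fell (log2 fold changes -0.79 and -0.46), Krt8, Krt18 and the cadherin gene Cdh1 rose (1.23, 1.20 and 0.92) and 2 did not pass. Their summed intensity went from between 15.11 and 15.18 to between 14.81 and 14.87, or 0.81 times the control level. Krt14, the brightest of the 7, carried most of that sum (group means 14.79 in controls and 14.00 in Bmp4 OE). The sum without Krt14 was not taken. The median log2 fold change of the 7 genes was 0.21, opposite in direction to the sum, so the fall of the sum does not describe the list as a whole. The part of these cells in the Spp1 value was not tested.

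Ibsp, an acidic sialoprotein that nucleates mineral, was level on average and uneven in Bmp4 OE. The probe (mMC014178) read 9.30 and 9.27 in controls and 9.06 and 9.43 in Bmp4 OE, so that the Bmp4 OE arrays lay on either side of the controls. Its log2 fold change was -0.04 (95% interval -0.41 to 0.33; limma, adjusted p = 0.883), and without Bmp4 OE replicate 1 it was 0.15. Spp1 minus Ibsp, as a log2 difference within each array, was -0.74 and -0.75 in controls and -2.34 and -2.63 in Bmp4 OE. That separation restates the fall of Spp1 and is no further result, and there were again too few arrays for a test.

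Spp1 and Ibsp belong to a cluster of genes on chromosome 5 for acidic phosphoproteins of bone and tooth, together with Dspp, Dmp1 and Mepe. Their starts in GRCm38.p6 follow in the order Dspp, Dmp1, Ibsp, Mepe and Spp1 on chromosome 5, with Dspp 264 kb and Ibsp 136 kb from Spp1. Of the 5 genes only Spp1 passed, where 7.39% of all named genes rose and 9.54% fell. The cluster was added after the values were seen. Dspp, a dentin gene, was under the lower quartile on all arrays, at a log2 fold change of 0.04. Dmp1 and Mepe, genes of osteocytes, had log2 fold changes of 0.08 and 0.02, with group means between 6.67 and 6.92, close to the lower quartile.

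Alpl, the enzyme that removes pyrophosphate and so permits mineral to form, was the member closest to the threshold. The probe (mMC020361) read 9.08 and 9.15 in controls and 8.66 and 8.74 in Bmp4 OE, with no overlap and differences within groups of 0.07 and 0.08. The log2 fold change was -0.42 (95% interval -0.67 to -0.16; limma, adjusted p = 0.0539). The adjusted p was between 0.0362 and 0.0495 when dim probes were left out (under the lower quartile or under the median), when 50 was added to the linear values, when the variance was estimated robustly and when all probes of a gene were averaged. Over all alternatives with 4 arrays it ranged from 0.0362 to 0.112, and with 1 array left out from 0.169 to 0.213. Across all named genes, the smallest change that passed was 0.415 on the log2 scale, about the size of that of Alpl and above those of Runx1, Runx3, Sp7 and Runx2.

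**Figure D3:**
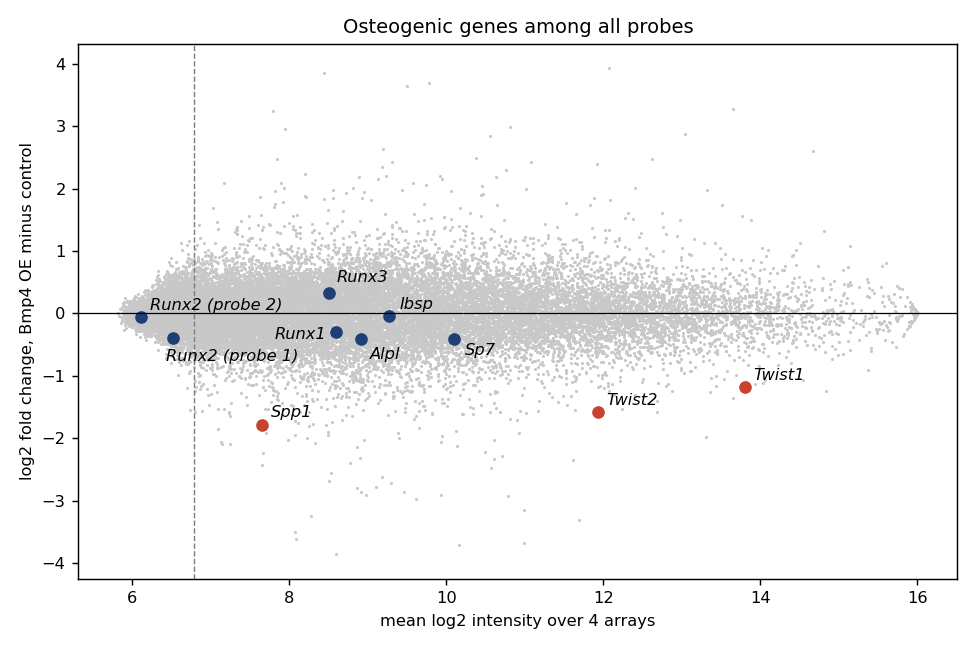
Log2 fold change, Bmp4 OE minus control (y axis), against mean log2 intensity over the 4 arrays (x axis) for all 29922 probes (grey) and the 10 probes of the 9 genes. Red points passed the adjusted threshold and dark blue points did not, and the dashed line is the lower quartile, 6.79. Twist1, Twist2 and Spp1 lie at -1.19, -1.59 and -1.78, below the main band of probes, while the Runx2 probes lie in the narrow dim end.

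The wider bone programme was read through 5 lists. Of 13 measured bone regulators, 5 rose, 0 fell and 8 did not pass, against 7.39% of all named genes that rose and 9.54% that fell, with a median log2 fold change of 0.19. Msx2 and Msx1, homeobox genes of osteoprogenitors and BMP targets, rose by 1.73 and 1.01 on the log2 scale. Msx2 read 12.59 and 12.71 in controls and 14.31 and 14.45 in Bmp4 OE. Dlx3, a homeobox gene of bone and tooth, rose by 0.81, Mef2c by 0.80 and Foxc1, a forkhead gene of skull bone, by 0.56. Dlx5 and Dlx6, which lie upstream of Runx2 in some settings, gave 0.11 and -0.50, neither of which passed (limma, adjusted p = 0.553 and 0.125).

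Most bone matrix and mineral genes did not pass. Of 22 measured members besides Spp1, Alpl and Ibsp, 4 rose, 2 fell and 16 did not pass. Among all named genes 7.39% rose and 9.54% fell. The median log2 fold change of the 22 was -0.04. Mgp, which encodes matrix Gla protein, an inhibitor of calcification, rose 5.08-fold, from 8.14 and 7.88 in controls to 10.35 and 10.36 in Bmp4 OE. The small proteoglycan genes Bgn and Dcn each had a log2 fold change of 0.86, and Sparc (osteonectin) one of 0.74. The other 2 Dcn probes gave 0.64 and -0.30. Postn (periostin), a matrix protein of periosteum and tooth ligament, fell 2.01-fold, and Col1a1, the main collagen of bone, fell 1.47-fold. Col1a2, whose product joins that of Col1a1 in collagen I, read 13.35 and 13.47 in controls and 13.60 and 12.85 in Bmp4 OE, which overlapped (log2 fold change -0.19 ± 0.25, SE).

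Most partners of the Runx proteins did not pass. Of 19 measured, 3 rose, 1 fell and 15 did not pass, with a median log2 fold change of -0.17. Among all named genes 7.39% rose and 9.54% fell. Cbfb, whose product pairs with all Runx proteins on DNA, gave 0.04 ± 0.20 (log2 fold change, SE). The Groucho-type co-repressor genes Tle2 and Tle4 rose by 1.07 and 0.66 on the log2 scale, and the second Tle2 probe gave 0.58. Cbfa2t3, a co-repressor gene of the ETO family, rose by 0.86 at its brightest probe, while its other probe gave -0.44. The acetyltransferase gene Kat6b fell (log2 fold change -0.57), and its other 3 probes gave -0.43, 0.10 and -0.56.

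Partners and relatives of the Twist proteins changed in both directions. Of 13 measured, Hand1, Id1 and Id4 rose, Tcf4, Scx and Tcf15 fell and 7 did not pass. Among all named genes 7.39% rose and 9.54% fell. Hand1, a bHLH factor of the distal arch that can pair with Twist1, rose 3.84-fold, to 9.90 and 9.93 from a control mean of 7.98. Id1 and Id4, which encode proteins that sequester the E proteins Twist pairs with, had log2 fold changes of 1.32 and 1.13. The Id4 controls were uneven, at 8.12 and 7.34. Id2 and Id3, of the same family, gave 0.005 and 0.055 and did not pass, and Id3 lay near the top of the scale in both groups. Among the E protein genes themselves, Tcf4 read 14.59 and 14.60 in controls and 13.75 and 13.21 in Bmp4 OE (log2 fold change -1.12), whereas Tcf3 and Tcf12, at 0.04 and -0.01, did not pass. Scx, a bHLH gene of tendon progenitors, and Tcf15, one of somites, had log2 fold changes of -0.68 and -0.64.

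Of 11 genes linked to fusion of skull sutures, Fgfr2 rose, Fgfr1 fell and 9 did not pass. These counts are near the shares of all named genes that rose (7.39%) and fell (9.54%). Fgfr2 had a log2 fold change of 0.66, and 0.65 at its second probe. Fgfr1 had one of -0.78, from 8.80 and 8.63 in controls to 7.82 and 8.05 in Bmp4 OE. The adjusted p-values of the genes that passed in these 5 lists lay between 0.00201 and 0.0419 (limma).

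**Figure D4:**
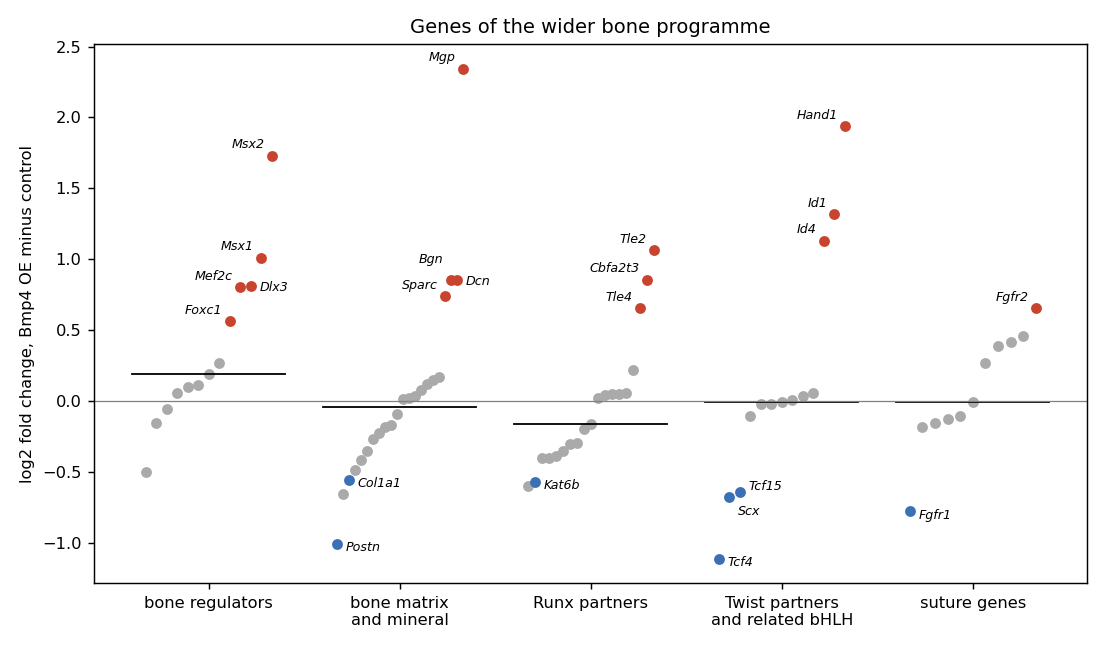
Log2 fold change, Bmp4 OE minus control (y axis), of each measured gene in 5 lists around the 9 genes (x axis), by the brightest probe of each gene. Red genes rose and blue genes fell at an adjusted p under 0.05 in limma, grey genes did not pass, and black lines are list medians, which lie between -0.17 and 0.19.

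Other skeletal and tissue markers were read on the same arrays. Of 9 cartilage genes, 5 rose (Sox9, Sox5, Col9a1, Col9a2 and Col9a3), 0 fell and 4 did not pass, where 7.39% of all named genes rose and 9.54% fell. The summed intensity of the list was 2.30-fold higher in Bmp4 OE. Col9a1, the brightest of the 9 in Bmp4 OE, went from a group mean of 12.335 to 14.305, and the sum without it was not taken. Of the 4, Acan and Sox6 gave log2 fold changes of -0.505 and -0.295 and Col2a1 one of 0.52 at its brightest probe. The other Col2a1 probes gave 0.13 and 0.32. Matn1 was under the lower quartile on all arrays. Of 5 muscle genes 1 rose, of 5 endothelial genes none passed, and of 5 erythroid genes 2 fell, while the globin genes lay at the top of the scale. Their part in the values of the 9 genes was not tested.

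By the root mean square distance of the 4 centred log2 values, the genes most like Twist1 were Wnk2, Lrig3 and Umps, those most like Twist2 were Homer2, Kif11 and Cxcl12, and those most like Spp1 were Kcnip4, Irx2 and Tmem132c. The distances were between 0.021 and 0.059 log2 units over 4 arrays. With so few arrays many genes come close: 99 of 16033 genes compared lay within 0.1 of Twist1, 19 of Twist2 and 11 of Spp1.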

How the data were processed

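Total RNA of whole mandibles was amplified, coupled to Cy5 and hybridised to 1-colour arrays, per the labels' protocols. The deposited table holds log2 intensities, and the authors' columns have identical sorted values (largest difference 0), as after quantile normalisation; no source used here names the scanner, software, filters or background correction. A shift shared by most genes would be hidden by this step, and calls of detection were not used. The number of arrays limits the precision.

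Probes were named from the platform annotation and the GRCm38.p6 RefSeq gene table: 21020 had 1 symbol, 0 several and 8902 none, and 3410 were updated through a synonym. The brightest probe by mean stood for a gene. All probes were fitted in R 4.3.3 with limma 3.58.1 (eBayes after lmFit, two-sided, 2 residual and 3.59 prior degrees of freedom) and Benjamini-Hochberg adjustment over all 29922 probes, after a test on simulated data. Alternatives were other scalings, filters on dim probes, variance models, a replicate block, averaged probes and each array left out. Named were all 9 genes with every probe, Bmp4, up to 6 passing members and usual readouts of each of 14 lists, and the 3 nearest genes by distance. The 9 genes and the lists were chosen with earlier results of these data known; the chromosome 5 cluster and the Runx pair were added after values and sequences were seen. Promoter windows are RefSeq's (GRCm38.p6); 8 of 9 genes had one.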

Additional observations from a re-analysis of the deposited data

How the results depend on the processing

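The direction of the log2 fold change of the 9 genes held under every alternative run except that of Ibsp, which was 0.145 without Bmp4 OE replicate 1 and ranged from -0.225 to 0.145 over the arrays left out. The falls of Twist1, Twist2 and Spp1 passed under median centring, repeated quantile normalisation, 50 added to linear values, a variance trend, robust variance and averaged probes, and under both filters on dim probes for Twist1 and Twist2. Spp1 passed under the filter at the lower quartile, and the filter at the median leaves Spp1 and Runx2 out. Leaving out 1 array left 1 residual degree of freedom: in limma 0 to 0 probes rose, 0 to 0 probes fell and 0 to 0 of the 9 genes fell at an adjusted p of 0.05, with lowest adjusted p-values from 0.138 to 0.191 and 6020 to 7947 probes at an unadjusted p under 0.05. The 3 genes kept 2-fold falls with an unadjusted p of at most 0.00369 there. Same-numbered arrays did not deviate together (r = -0.071 across probes), so the numbers were not taken as pairs. With the replicate block 0 probes rose, 0 fell and 0 of the 9 genes fell in limma, where the lowest adjusted p was 0.0745, that of Twist1, Twist2 and Spp1 as well, and 8724 probes had an unadjusted p under 0.05, against 9868 without it. No intensity-based limit of detection was used here, so values under the lower quartile are only known to be dim.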
